A study of Mus musculus with 24 samples.

Results

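Hmgcs1, Idi1, Fdft1, Sqle, Msmo1 and Fasn encode enzymes of sterol and fatty acid synthesis. Their probes were taken from 2 array designs (slide types 1 and 2) wherever the platform annotation gave exactly 1 gene symbol equal to one of these names. This gave 8 probes of 15360 for 6 genes of the 6970 with such a probe, 5 of them among the 7680 of slide type 1 and 3 among the 7680 of slide type 2. Hmgcs1, Idi1, Fdft1 and Sqle had 1 probe each on slide type 1, Msmo1 had 2 probes on slide type 2, and Fasn had 1 probe on each. The tested RNA was total RNA of cultured mouse embryos that were kept at 43 °C for 15 min and then cultured at 37 °C for 1 h. The RNA set against it on the same array came from embryos left at 37 °C throughout. The sources used here give neither the strain nor the stage, the number of embryos or whether they were pooled. The 24 arrays came from 3 numbered treatments, each with 4 arrays per slide type, of which 2 carried the heat-shocked RNA in channel 1 and 2 carried it in channel 2.

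Cholesterol is made from acetyl-CoA. HMG-CoA synthase stands at the entry of the route to mevalonate, isopentenyl diphosphate is built from mevalonate and joined into farnesyl diphosphate, and the joining of farnesyl units gives squalene, the first committed sterol precursor. Squalene is oxidised, closed into lanosterol and trimmed to cholesterol, which growing cells put into their membranes and which embryos also attach to Hedgehog proteins. Fatty acid synthase starts from the same acetyl-CoA, and the genes of both routes are known targets of the SREBP transcription factors, which act together with the CCAAT-binding factor NF-Y.

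Promoter sequences are shown because the 6 genes belong to routes with shared regulators, so the letters can be read beside the values. They come from RefSeq (GRCm38.p6), run 5′ to 3′ from 250 bases before to 50 bases after the start of the gene, and were matched for 4 of the 6 genes, with Fdft1 and Sqle unmatched. Capitals mark the sterol regulatory element core TCACNCCAC and the CCAAT box, searched on both strands, so that a CCAAT box on the other strand reads ATTGG. The Hmgcs1 promoter lies at chr13:119690101-119690400 (plus strand), that of Idi1 at chr13:8885356-8885655 (plus strand), that of Msmo1 at chr8:64733529-64733828 (minus strand) and that of Fasn at chr11:120824498-120824797 (minus strand).
Hmgcs1: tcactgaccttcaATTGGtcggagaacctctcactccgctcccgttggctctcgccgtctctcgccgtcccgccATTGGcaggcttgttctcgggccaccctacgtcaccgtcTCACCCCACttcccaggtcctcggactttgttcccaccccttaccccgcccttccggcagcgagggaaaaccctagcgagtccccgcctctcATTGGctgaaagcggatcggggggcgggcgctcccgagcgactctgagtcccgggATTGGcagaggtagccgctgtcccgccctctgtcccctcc
Idi1: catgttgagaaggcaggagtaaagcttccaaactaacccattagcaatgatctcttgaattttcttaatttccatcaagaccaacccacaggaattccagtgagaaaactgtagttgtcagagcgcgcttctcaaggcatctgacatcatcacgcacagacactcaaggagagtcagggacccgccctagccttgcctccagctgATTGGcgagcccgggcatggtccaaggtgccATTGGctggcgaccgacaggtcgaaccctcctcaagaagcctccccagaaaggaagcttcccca
Msmo1: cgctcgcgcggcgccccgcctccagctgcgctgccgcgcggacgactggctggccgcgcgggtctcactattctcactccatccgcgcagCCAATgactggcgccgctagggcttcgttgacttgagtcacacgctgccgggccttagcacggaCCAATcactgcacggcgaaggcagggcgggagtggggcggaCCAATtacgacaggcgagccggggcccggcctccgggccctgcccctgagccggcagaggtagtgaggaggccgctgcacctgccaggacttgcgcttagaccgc
Fasn: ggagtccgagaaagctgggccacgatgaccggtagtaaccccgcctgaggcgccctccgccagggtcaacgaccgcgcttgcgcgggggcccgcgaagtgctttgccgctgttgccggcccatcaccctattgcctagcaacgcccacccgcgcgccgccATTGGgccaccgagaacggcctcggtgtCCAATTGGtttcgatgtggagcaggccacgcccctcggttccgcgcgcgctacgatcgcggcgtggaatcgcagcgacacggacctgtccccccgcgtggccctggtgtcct
The sterol regulatory element core was found in 1 of these 4 promoters, that of Hmgcs1, 1 time, beginning 137 bases before the start site. It is in 1.24% of the 32851 promoters of that length in the table. CCAAT boxes were found in all 4, with 4 matches in Hmgcs1, 2 in Idi1, 3 in Msmo1 and 3 in Fasn, where 2 matches share bases. A CCAAT box is in 37.4% of all promoters in the table. The paired heat shock element unit GAANNTTC, which is the same on both strands, was found 2 times in Idi1 and in none of the other 3, against 7.86% of all promoters. A match describes the letters in this window, and no binding was measured here.

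All values below are the authors' deposited log ratios after 3 steps: the sign was turned on arrays with heat-shocked RNA in channel 2, each array was centred on its median probe, and the 4 arrays of a treatment were averaged so that each channel order had the same weight. The base of the log and the numerator of the ratio are not stated. Positive values therefore mean heat shock over control only if channel 1 is the numerator, and a turned sign would exchange the sides of every value and rank and leave the sizes as they are. Single arrays of the same channel order correlated over all probes from r = −0.34 to 0.94 on slide type 2. On slide type 1 the range was 0.29 to 0.82. The direction of all values is one of convention, because the labels do not state the numerator. After averaging, the lowest and highest correlations between treatments were 0.70 and 0.80 for slide type 1, and 0.82 and 0.90 for slide type 2. As a point of reference, Hspb1, the small heat shock protein Hsp27, lay on the positive side at 2.23 ± 0.050 (SD, n = 3 treatments), and the Hsp110 chaperone Hsph1 at 2.25 ± 0.30 and 2.32 ± 0.73 by its 2 probes. Heat is known to induce heat shock chaperones as a class, and a list of 14 was counted. On slide type 1, 16 of its 25 probes were positive and 0 negative, where 844 of all 7680 probes were positive. The positive probes belonged to 6 of the 11 genes measured there. On slide type 2, 3 of 6 probes were positive and 0 negative, from 3 of 4 genes, where 28.9% of all probes were positive. A probe was called at a limma adjusted p under 0.05 over all probes of its slide type. The labels do not tie a treatment to a litter or culture, so the spread between these 3 treatments may be technical. A p-value sets the mean of a probe against that spread, which limma draws toward the spread of all probes of the slide type.

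The 6 enzymes were chosen with earlier results of these data known, so the counts of their calls only describe them. All 5 probes of the group on slide type 1 were called on the negative side. Of all probes there, 16.1% were called, and 5.09% on the negative side. On slide type 2 all 3 were called, 2 on the negative and 1 on the positive side, but there 53.3% of all probes were called, 24.4% negative and 28.9% positive, so being called says little by itself. The split of all calls depended on the centring: slide type 1 had 844 positive and 391 negative calls with centring on all probes, 996 and 221 with centring on single-symbol probes, and 1210 and 14 without centring. Slide type 2 had 2219 and 1877, 3283 and 1205, and 422 and 135 in the same order. In the plot of all 24 arrays, 6 of the 8 enzyme probes lay below 0 on each of their 12 arrays, 1 lay above 0 on each, and the Fasn probe of slide type 2 lay on both sides.

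**Figure D1:**
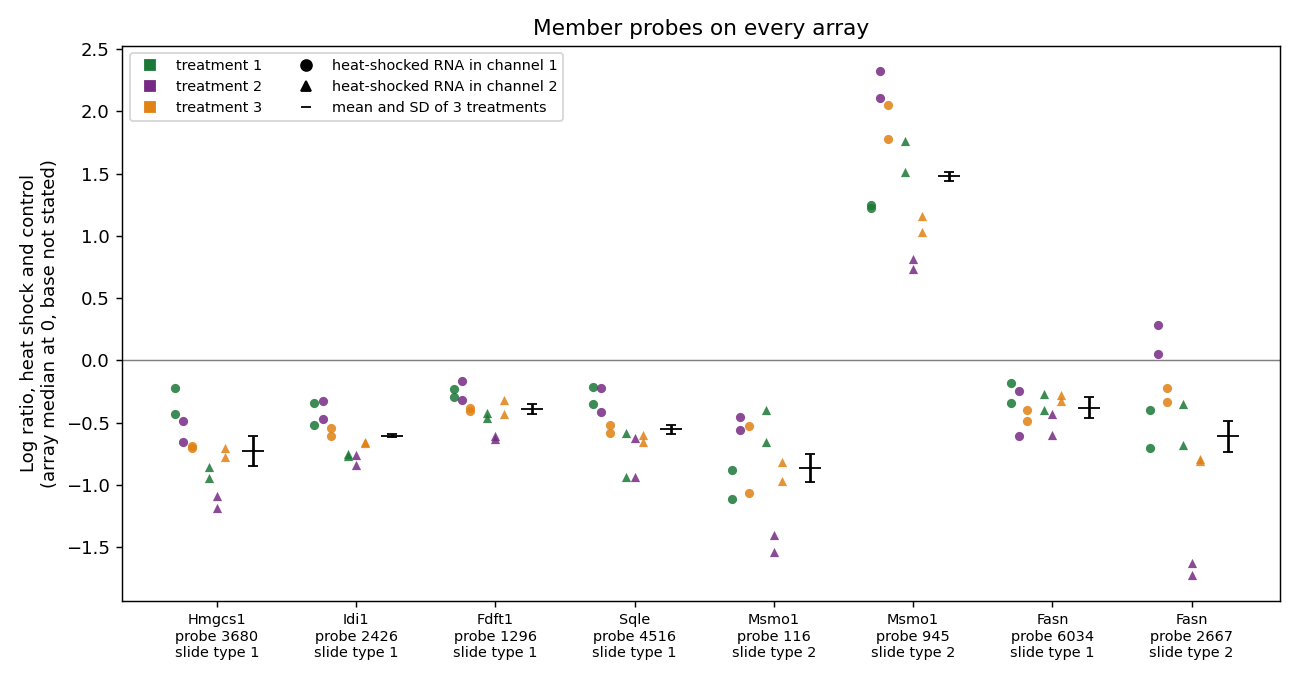
Centred log ratio (vertical axis, log units of unstated base) of the 8 probes on every array, with colour for the treatment, circles for heat-shocked RNA in channel 1, triangles for channel 2, and the mean and SD of the 3 treatments at the right of each probe. The 4 sterol synthesis probes of slide type 1 lie below 0 on all 12 arrays, and the Msmo1 probes 116 and 945 lie on opposite sides.

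Hmgcs1 encodes the cytosolic HMG-CoA synthase, which joins acetyl-CoA to acetoacetyl-CoA at the entry of the mevalonate route. Its probe 3680 had log ratios of −0.61, −0.85 and −0.71 in treatments 1, 2 and 3. All 12 arrays were negative, from −1.18 to −0.22 with a median of −0.70. The mean was −0.73 ± 0.12 (SD, n = 3 treatments; limma adjusted p = 2.78e-06), a difference of 1.65-fold if the log has base 2 and of 2.07-fold if it is natural. Only 16 of the 7680 probes of slide type 1 had a lower mean. Idi1, the isomerase that turns isopentenyl diphosphate into its reactive partner dimethylallyl diphosphate, had −0.59, −0.60 and −0.62 in the 3 treatments on probe 2426. Its arrays ran from −0.84 to −0.32 with a median of −0.63, again with none above 0. The mean of −0.60 ± 0.012 (SD, n = 3 treatments; limma adjusted p = 7.36e-06) amounts to 1.52-fold in base 2 or 1.83-fold in natural logs. The treatments differed less for Idi1 than for nearly all other probes, with a smaller SD in 1.13% of them, and the single arrays differed far more than the treatment means did.

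Fdft1 is squalene synthase, which joins the farnesyl units, and Sqle is squalene epoxidase, a rate-limiting oxygen-using step. The Fdft1 probe 1296 had −0.35, −0.43 and −0.38 in treatments 1, 2 and 3, and its arrays ran from −0.63 to −0.16 with a median of −0.39. Its mean was −0.39 ± 0.039 (SD, n = 3 treatments; limma adjusted p = 0.000485), 1.31-fold in base 2 or 1.47-fold in natural logs, the smallest size among the 4 sterol enzymes of this slide type. The Sqle probe 4516 had −0.52, −0.55 and −0.59, with arrays from −0.94 to −0.21 and a median of −0.58. Its mean was −0.55 ± 0.035 (SD, n = 3 treatments; limma adjusted p = 1.83e-05), 1.47-fold in base 2 or 1.74-fold in natural logs. Every array was negative for both genes. By rank from the negative end, Idi1 was number 27 of 7680, Sqle number 31 and Fdft1 number 69.

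**Figure D2:**
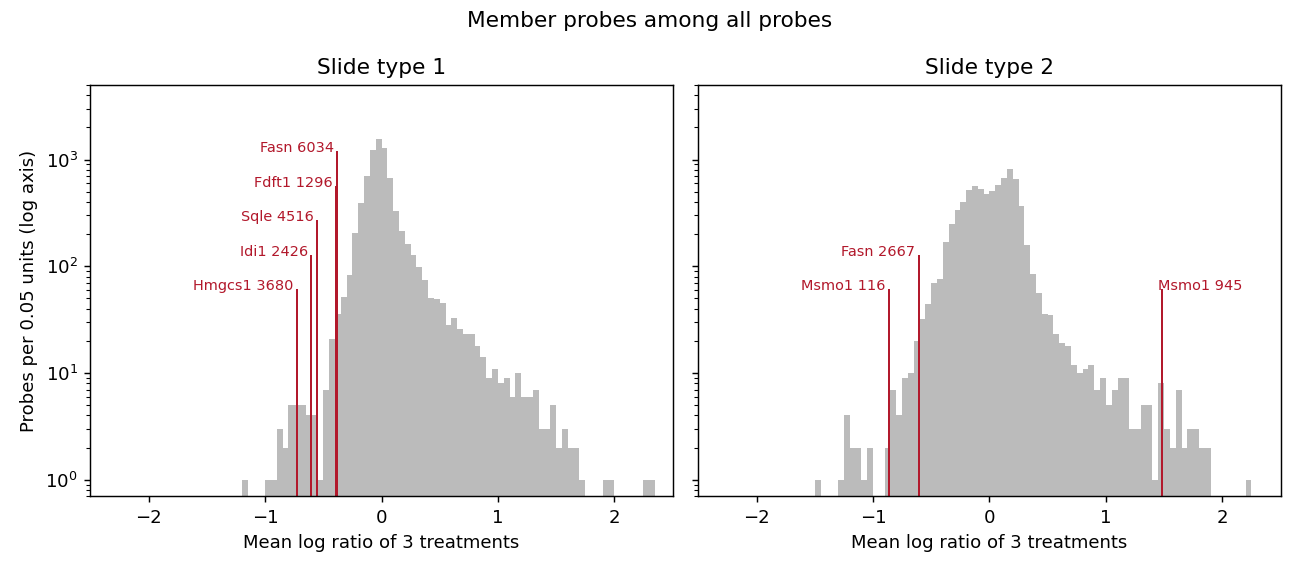
Number of probes (vertical log axis, per 0.05 units) by mean log ratio of the 3 treatments (horizontal axis) on slide types 1 and 2, with red lines at the 8 probes. Hmgcs1, Idi1 and Sqle stand in the sparse negative tail of slide type 1, and Msmo1 has a probe in each tail of slide type 2.

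Msmo1, a methylsterol monooxygenase that acts in the removal of methyl groups after lanosterol, was measured by 2 probes. The annotation ties them to different sequence entries, and they disagreed. Probe 116 had −0.76, −0.99 and −0.84 in treatments 1, 2 and 3, with all 12 arrays between −1.54 and −0.39. Probe 945 had 1.44, 1.49 and 1.50, with all 12 arrays between 0.73 and 2.32. No array of one probe reached the range of the other. The means were −0.86 ± 0.11 (limma adjusted p = 2.05e-06) for probe 116 and 1.48 ± 0.037 (limma adjusted p = 1.17e-08) for probe 945 (SD, n = 3 treatments each). Probe 116 was number 14 of 7680 from the negative end, and 28 probes had a higher mean than probe 945. The difference of 2.34 units between them was larger than the range of any other of the 685 genes with several single-symbol probes on slide type 2, whose median range was 0.12. Calls on both sides were found in 52 of these 685 genes (7.59%). On slide type 1, 3 of 717 such genes had them. It is not shown whether each of the 2 probes measures Msmo1, and a mean over both describes neither. Over the 12 arrays the 2 probes correlated at r = 0.82, a description of arrays that share treatments and channel orders. Large positive means belonged mostly to probes without a gene symbol: 52 of the 80 probes above 1 unit on slide type 2 had none (65.0%), against 32.2% of all probes there. Probe 945 was among the 24 of them that had exactly 1 symbol. The bearing of this share on probe 945 was not tested, and the limit of 1 unit was chosen after the values were seen.

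Fasn, the multidomain enzyme that assembles palmitate, was the fatty acid synthesis enzyme of the group and was negative on both slide types. On slide type 1, probe 6034 had −0.30, −0.47 and −0.37 in treatments 1, 2 and 3, with all 12 arrays between −0.61 and −0.18. The mean was −0.38 ± 0.086 (SD, n = 3 treatments; limma adjusted p = 0.000825), 1.30-fold in base 2 or 1.46-fold in natural logs. On slide type 2, probe 2667 had −0.53, −0.75 and −0.54, and a mean of −0.61 ± 0.13 (SD, n = 3 treatments; limma adjusted p = 4.09e-05), 1.52-fold in base 2 or 1.84-fold in natural logs. Its single arrays ran from −1.72 to 0.29, and 10 of the 12 were negative. The 2 positive arrays were those of treatment 2 with heat-shocked RNA in channel 1, at 0.29 and 0.049, whereas the arrays of that treatment in the other channel order had −1.62 and −1.72. Channel effects were large in that treatment over all probes of slide type 2: the channel component, which cancels in the average of both orders, had an SD of 0.61 in treatment 2 and of 0.23 and 0.28 in treatments 1 and 3. With channel 1 arrays alone, probe 2667 had −0.22 and lost its call (limma adjusted p = 0.896), and without treatment 2 it had −0.54 and kept it. Of 943 genes with single-symbol probes on both slide types, Fasn was 1 of 69 called on the negative side alone on both, while 17 were called on the positive side alone on both and 26 on opposite or mixed sides.

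Among the probes on the negative side of slide type 1, the order from the largest size was Hmgcs1, Idi1, Sqle, Fdft1 and Fasn. The 95% intervals from limma were −0.87 to −0.58 for Hmgcs1, −0.74 to −0.47 for Idi1, −0.69 to −0.42 for Sqle, −0.52 to −0.25 for Fdft1 and −0.52 to −0.24 for Fasn. Each interval overlapped that of its neighbour in this order, and that of Hmgcs1 lay apart from those of Fdft1 and Fasn. Log ratios of spotted probes need not follow transcript change on 1 scale, so the order describes the probes. Treatment 2 gave the most negative value for Hmgcs1, Fdft1, Msmo1 probe 116 and both Fasn probes, and treatment 3 for Idi1 and Sqle.

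The channel orders differed in size for the sterol probes. Arrays with the heat-shocked RNA in channel 1, and those with it in the other channel, had means of −0.53 and −0.92 for Hmgcs1, −0.47 and −0.74 for Idi1, −0.30 and −0.48 for Fdft1, and −0.38 and −0.72 for Sqle. All 4 were thus larger in size with the heat-shocked RNA in channel 2. The same held for 92.1% of the 391 probes called on the negative side of slide type 1, so it was not particular to these enzymes. Fasn probe 6034 had nearly equal means, −0.38 in each order. Msmo1 probe 116 had −0.77 and −0.96, and probe 945 had 1.79 and 1.17.

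Centring moved the 5 enzyme probes of slide type 1 more than any other setting tried. When the arrays were turned but not centred, the treatment averages of slide type 1 had medians over all probes of 0.25, 0.066 and 0.57 in treatments 1, 2 and 3, so that leaving them uncentred added 0.30 to every mean of that slide type and widened the spread between treatments. Without centring, Hmgcs1 had −0.42 (limma adjusted p = 0.0568), Idi1 −0.30 (limma adjusted p = 0.145), Sqle −0.25 (limma adjusted p = 0.192), Fdft1 −0.084 (limma adjusted p = 0.625) and Fasn probe 6034 −0.075 (limma adjusted p = 0.663). All 5 means stayed negative and none was called. In treatment 3, whose uncentred median was the highest, Fdft1 had 0.20 and Fasn 0.22. On slide type 2 the added amount was 0.083, and Msmo1 probes 116 and 945 and Fasn probe 2667 kept their calls. The negative values of slide type 1 are therefore values relative to the median probe of the array.

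**Figure D3:**
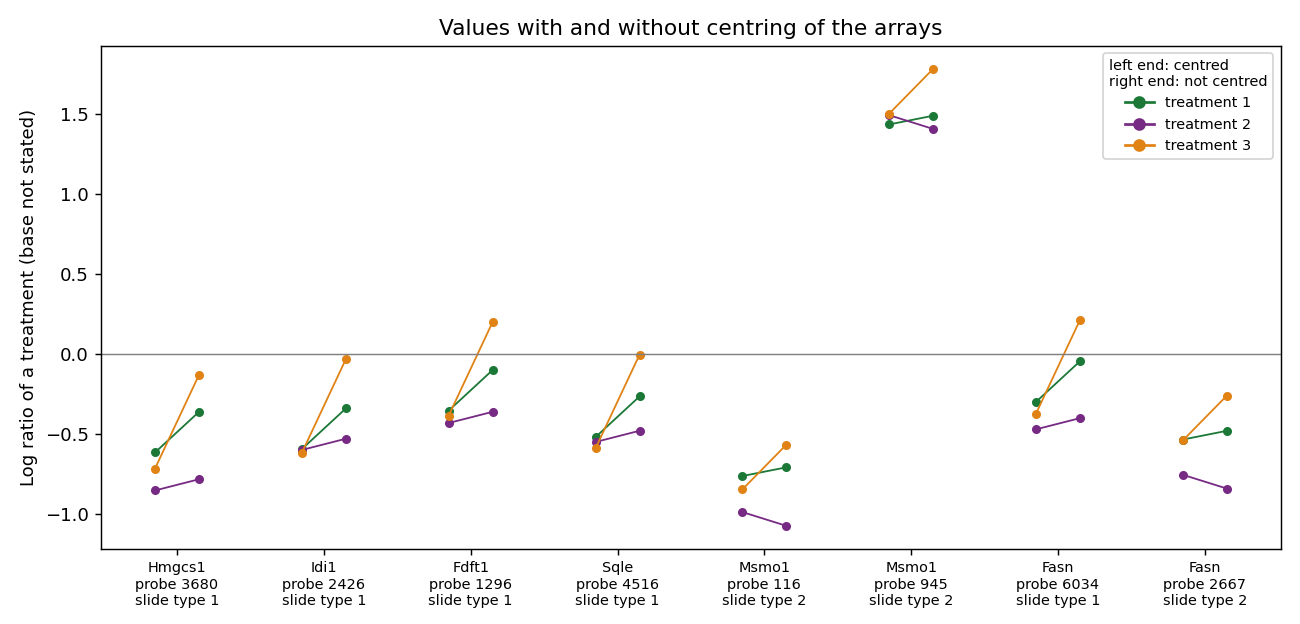
Log ratio of each treatment (vertical axis, log units of unstated base) for the 8 probes, centred at the left end and not centred at the right end of each line, with colour for the treatment. Treatment 3 moves the most on slide type 1, where Fdft1 and Fasn cross 0.

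Other sterol synthesis enzymes were described from a list of 22 genes, of which 11 had a single-symbol probe. Like the other gene lists used here, it was written with earlier results of these data known. On slide type 1, where 5.09% of all probes were called negative, 5 of its 10 probes were called, all on the negative side. The members above gave 4 of these calls, and the 6 probes outside them gave 1. That probe was of Dhcr7, which makes cholesterol in the last step of one branch, at −0.30 ± 0.064 (SD, n = 3 treatments; limma adjusted p = 0.00382), with −0.0012 without centring. Mvd, Ggps1, Lss, Lbr and Nsdhl were not called there, at −0.18, 0.044, −0.0046, −0.15 and 0.019. The median of the list was −0.24, and −0.079 over its 6 probes outside the members, against −0.015 over all probes. On slide type 2 Lbr, a sterol reductase that also anchors the nuclear lamina, was negative at −0.37 ± 0.060 (SD, n = 3 treatments; limma adjusted p = 0.0006), with −0.082 and −0.66 in the channel orders and no call without centring (−0.29). There Ggps1 was also called, on the positive side, at 0.19 ± 0.058 (SD, n = 3 treatments; limma adjusted p = 0.0201), although its channel orders gave 0.44 and −0.070. Its product, geranylgeranyl diphosphate, leaves the sterol route before squalene, so the list is wider than sterol synthesis alone. Cyp51 and the regulators Srebf2, Scap, Insig1 and Insig2 were not analysed here.

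Of the list of 23 genes of fatty acid synthesis and desaturation, 11 were measured. On slide type 1, 4 of 15 probes were negative and 2 positive, with a median of −0.025, where 5.09% of all probes were negative. Of the 5 probes on slide type 2, 3 were negative and 0 positive, with a median of −0.15 against 0.032 over all probes, 24.4% of which were negative. Both counts include Fasn. Outside it, 3 of 14 probes on slide type 1 were negative, with a median of −0.011. On slide type 2, 2 of 4 were negative, with a median of −0.0013. Scd2, a stearoyl-CoA desaturase that forms monounsaturated fatty acids, lay near Sqle in size at −0.53 ± 0.036 (SD, n = 3 treatments; limma adjusted p = 2.52e-05). It had −0.53, −0.57 and −0.50 in treatments 1, 2 and 3, and −0.23 without centring (limma adjusted p = 0.215). Acacb, the acetyl-CoA carboxylase found at mitochondria, was positive at 0.27 ± 0.19 (SD, n = 3 treatments; limma adjusted p = 0.024), a value of which treatment 2 gave 0.50 and without which it was 0.16 and not called. The elongase Elovl6 had 5 probes that did not share a side, with 2 negative (−0.28 and −0.23), 1 positive (0.23) and 2 not called (0.0020 and 0.025). Elovl5 and the dehydratase Hacd3 were negative on slide type 2, at −0.27 and −0.15.

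Sterol sensing and uptake genes, from a list of 22 with 8 measured, gave no call among 6 probes on slide type 1 and 2 positive calls among 7 on slide type 2, where 28.9% of all probes were called positive, so the count is near that of any probes. Srebf1, the gene of SREBP-1, which drives fatty acid synthesis genes, was not called, at 0.023, −0.049 and 0.13 in the 3 treatments and a mean of 0.036 (limma adjusted p = 0.617). The lipoprotein receptor Vldlr was positive by 1 of 2 probes on slide type 2, at 0.21, and the lysosomal cholesterol carrier Npc2 by 1 of 2, at 0.24. Of the 12 called probes outside the 6 enzymes in these 3 lists, 10 lost their call without centring. Scd2 lost it under 1 of the 15 other settings tried and Dhcr7 under 2, whereas Hacd3 lost it under 12 and Ggps1, Vldlr and Elovl6 probe 4531 under 8 each. Without treatment 1, Elovl5 had −0.20, Hacd3 −0.13, Elovl6 probe 4531 −0.21, Ggps1 0.17, Npc2 0.20 and Vldlr 0.15, none of them called. Without treatment 2, Elovl6 probes 1224 and 4832 had 0.22 and −0.22 and were not called, and Vldlr had 0.32 and was. Without treatment 3, Elovl6 probes 1224 and 4531 had 0.20 and −0.19, Ggps1 0.17, Hacd3 −0.17 and Vldlr 0.16, again with no call.

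**Figure D4:**
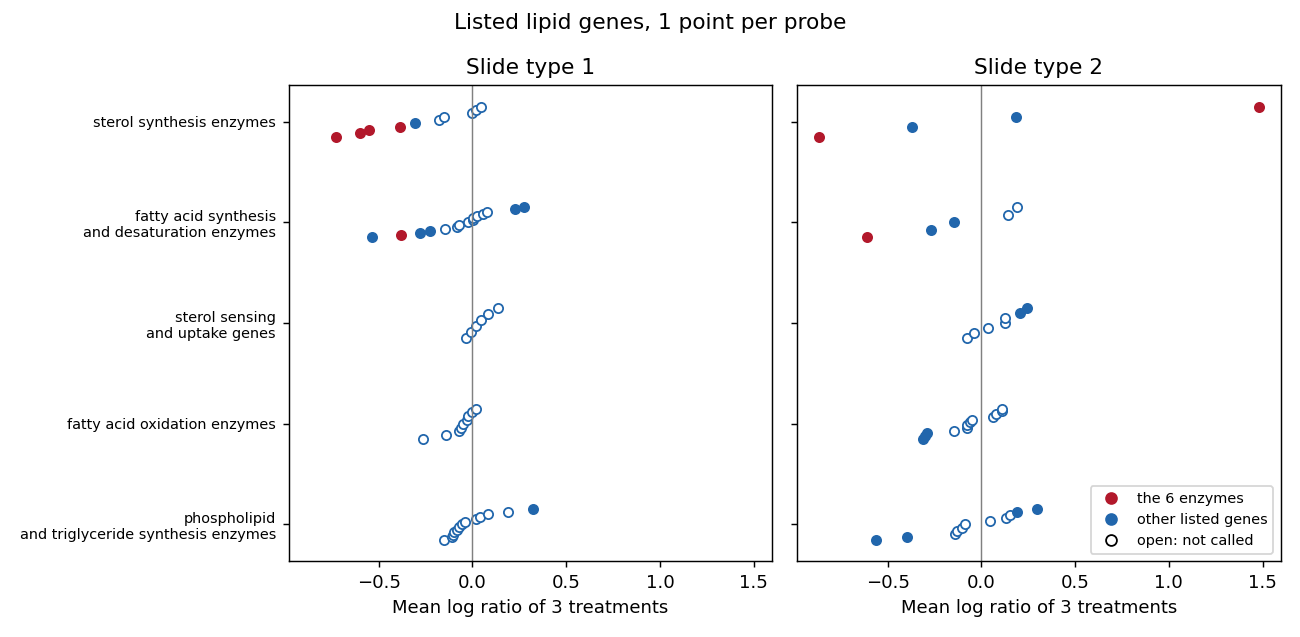
Mean log ratio of the 3 treatments (horizontal axis) of every single-symbol probe of 5 lists of lipid genes on slide types 1 and 2, with the 6 enzymes in red, other listed genes in blue and open circles for probes not called. The sterol synthesis row of slide type 1 reaches −0.73, while its sterol sensing row stays between −0.035 and 0.14.

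The probes whose 12 array values ran most like those of a member were found by Pearson correlation over all other single-symbol probes, 4748 on slide type 1 and up to 4934 on slide type 2. For Hmgcs1 these were Elovl6 probe 4832 (r = 0.98), Lin7c (0.95) and Ccnf (0.95). For Idi1 they were Gabarapl2, Tbc1d31 and Shmt1 (0.96 to 0.94), for Fdft1 Supt16, Tardbp and G3bp2 (0.93 to 0.92), and for Sqle Pbrm1, Sdhd and Pold3 (0.95 to 0.93). Fasn came with Fryl, 4930562C15Rik and Mrps25 on slide type 1 (0.85 to 0.76) and with Mex3a, Mcm7 and Ptprf on slide type 2 (all above 0.99). No member was among the nearest probes of another. For Msmo1 the probes were taken singly, a choice made after the values were seen, which gave Smo, Cpsf3 and Drosha for probe 116 (0.96 to 0.94) and Man1c1, Kctd4 and Taok1 for probe 945 (all above 0.99). These arrays share channel orders and treatments. A probe with r near 1 could lie on another side, as Taok1 probe 944 did at −0.54 beside 1.48 for Msmo1 probe 945. The 2 probe numbers are adjacent, and their places on the slide were not examined.

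Ratios carry no level, so the labelled tissue was not checked against marker levels. Probes for markers of cell types that an embryo culture could hold were called on the negative side or not at all. Over all probes, 5.09% were called negative on slide type 1 and 24.4% on slide type 2, so calls among so few probes say little. Yolk sac endoderm, a tissue that makes lipoproteins, gave 0 calls among 4 probes (Ttr, Apoa1, Apoa4 and Apob, −0.067 to 0.039), and trophoblast 0 among 4. Of 6 erythroid probes on slide type 2, 2 were called, both of them probes of Hbb-y at −0.15, and the 1 on slide type 1 was not called. Neural markers gave 1 of 3 on slide type 1 (Tubb3, −0.21). Endothelial markers gave 1 of 3 on slide type 1 (Esam, −0.27) and 1 of 1 on slide type 2 (Cd34, −0.31), and none of the heart muscle markers had a probe. Their part in the values of the enzymes was not tested, and fewer cells of a type and less RNA per cell cannot be told apart in whole embryos.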

How the data were processed

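The values were the authors' log ratios of the channels, deposited as a processed table for each slide type and treated here as a score, since the labels and tables name no log base, numerator, background correction or normalization. Depth and spot intensities are unknown, and the number of arrays limits the precision. Channel order and treatment came from the labels. The sign was turned on the 12 arrays whose channel 2 held the heat-shocked RNA, each array was centred on its median, and 4 arrays per treatment were averaged on each slide type to 1 value, giving n = 3 treatments. All 7680 probes of a slide type were fitted with limma 3.58.1 in R 4.3.3 (lmFit and eBayes on an intercept) and adjusted by Benjamini-Hochberg at 0.05. The fit was tested on simulated data. Other settings were no centring, centring on annotated probes or within runs of 384 neighbouring probe numbers, 1 channel order, arrays with or without a suffix in their slide code, medians, other priors, scaling, the treatment as a block, and leaving out each treatment. The 6 enzymes and the gene lists were chosen with earlier results of these data known. Named were all probes of the 6 enzymes, the called members of 3 lists with 13 genes fixed by name (those without a probe are not reported), and the 3 probes most like each enzyme. Figures were drawn with matplotlib 3.10.9.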

Additional observations from a re-analysis of the deposited data

How the results depend on the processing

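Of 120 values, the 8 enzyme probes under 15 other settings, 114 kept their side and their call, 6 lost the call and 0 changed side. The lost calls were the 5 of slide type 1 without centring (0 enzyme probes called there instead of 5, and 0 of the sterol synthesis list instead of 5) and Fasn probe 2667 with channel 1 arrays only, which left 1 negative call instead of 2 on slide type 2. The sterol list of slide type 2 had 1 negative call, against 2, without centring and with either channel order alone. The replicate block (12 arrays, treatment as a random block, estimated correlation 0.067 on slide type 1 and −0.22 on slide type 2) changed no call of the 8 probes. Counts over all probes moved far more. On slide type 1 the 391 negative calls became 14 without centring, 221 with centring on single-symbol probes, 678 with the treatment as a block, 1140 with channel 1 arrays only and 196 with the suffixed arrays only, and ranged from 234 to 430 when a treatment was left out (234 without treatment 2). The 844 positive calls became 472 with channel 2 arrays only. On slide type 2 the 1877 negative calls became 135 without centring, 1205 with single-symbol centring, 13 and 236 with channel 1 and channel 2 arrays only, and 514 with arrays scaled alike. The 2219 positive calls became 422, 213 and 464 without centring and with either channel order, and 630 with arrays scaled alike, and ranged from 994 (without treatment 1) to 3038, with 1318 without treatment 3. The cause of these shifts was not tested. Leaving out a treatment moved the enzyme probes little: Hmgcs1 ranged from −0.78 to −0.66, Msmo1 probe 116 from −0.92 to −0.80 and Fasn probe 2667 from −0.65 to −0.54. Centring within runs of probe numbers was chosen after the data were seen.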

Other observations

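Other lipid genes gave few calls. Of fatty acid oxidation enzymes, none of 9 probes was called on slide type 1 by limma (median −0.050), and 3 of 12 were negative on slide type 2 (median −0.069), near the 24.4% of all probes called negative there. They were the beta-oxidation enzymes Hadh, Hadha and Eci2, at −0.31, −0.30 and −0.29. With heat-shocked RNA in channel 1 these 3 had −0.044, −0.047 and −0.016, and with it in channel 2 they had −0.57, −0.55 and −0.57. Without treatment 2, Hadh had −0.19 and kept its call. Among enzymes of phospholipid and triglyceride synthesis, 1 of 13 probes on slide type 1 was positive and 0 negative, and 2 of 11 on slide type 2 were positive and 2 negative, where 28.9% and 24.4% of all probes were. Choline kinase Chka was positive on both slide types, at 0.32 ± 0.16 (SD, n = 3 treatments; limma adjusted p = 0.00591) and 0.30 ± 0.087 (SD, n = 3 treatments; limma adjusted p = 0.00272). Cds2, which makes CDP-diacylglycerol, was negative at −0.56 ± 0.015 (SD, n = 3 treatments; limma adjusted p = 2.71e-05), and Agpat1, an acyltransferase of phosphatidic acid synthesis, at −0.40 ± 0.049 (SD, n = 3 treatments; limma adjusted p = 0.000358) on slide type 2, where single channel orders ended the calls of Chka, Cds2 and Agpat1. The other positive probe, of Chpt1, had 0.19 ± 0.049 (SD, n = 3 treatments; limma adjusted p = 0.0173), with −0.40 and 0.79 in the channel orders and no call without treatment 1 (0.19) or treatment 3 (0.17). Agpat1 had −0.11 on slide type 1 and was not called there.

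On slide type 1, 52 of the 77 probes above 1 unit carried no gene symbol (67.5%), against 35.2% of all probes. Below −0.5 units this share was 18.8% of 32 probes there, and 13.5% of 141 probes on the other slide type.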
